A study of Mus musculus with 6 samples.

Results

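Of the 32179 genes listed in the deposited table, 39 encode lysosomal enzymes, their activators and lysosomal membrane proteins, together with the transcription factor Tfeb. The members are a list of gene symbols, and each of the 39 symbols matched 1 row. The rule uses no measured value, but the list was chosen with earlier results of these data known. All 39 had a mean of at least 10 normalised counts over the 6 libraries and entered the test over all genes. The RNA was that of vascular smooth muscle cells (SMC). They had been sorted out of skeletal muscle taken from male C57BL6J mice, aged 8 to 24 weeks, that carried the mTmG reporter, in which Cre recombination switches on EGFP. Mice of both groups had received tamoxifen. In iSM-G5C-KO animals this induction deleted Gprc5c, the gene of an orphan G protein-coupled receptor, from smooth muscle. The controls carry the genotype label wild type, while the tissue label of all 6 libraries reads Gprc5c-floxed. Not given in the sources used here are the promoter that drives Cre, the exons deleted and how many mice stand behind a library. There were 3 iSM-G5C-KO and 3 control libraries, and the question was what loss of GPRC5C does to gene expression in these cells.

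Lysosomes are acidic organelles in which many kinds of hydrolase break down glycosaminoglycans, glycolipids, glycogen, proteins and lipids. Most soluble hydrolases are tagged with mannose 6-phosphate in the Golgi and carried to the lysosome by mannose 6-phosphate receptors, while heavily glycosylated membrane proteins such as LAMP1 and LAMP2 line the organelle. TFEB, a basic helix-loop-helix transcription factor, binds an E-box element found near many lysosomal genes, and is held in the cytoplasm when mTORC1 on the lysosomal surface is active. Loss of single hydrolases causes lysosomal storage diseases, several of which affect arterial walls.

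Reads assigned to the listed genes were an estimated 1477485 to 2581454 per library in iSM-G5C-KO and 1556750 to 2935114 in control, which is shallow. Control library 3 stood apart, with 29707 genes above 0, against 20481 to 21179 in the other libraries. Markers of smooth muscle were high in all 6 libraries, with a summed level over 10 genes of 12275 to 14596 normalised counts in iSM-G5C-KO and 14285 to 14641 in control. Gprc5c had 328, 305 and 360 normalised counts in iSM-G5C-KO libraries 1, 2 and 3, against 428, 532 and 497 in control libraries 1, 2 and 3. The groups did not overlap, but the log2 fold change of -0.55 (SE 0.13) missed the threshold in limma's test of all genes (adjusted p = 0.999). Libraries with the same number in both groups resembled each other, and differences within a number are given where they bear on a result.

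A cofactor and membrane proteins head the lysosomal transcripts by level. Per kilobase of annotated exon, averaged over the 6 libraries, prosaposin (Psap), the precursor of the saposin activators of sphingolipid breakdown, stood first at 270.2 normalised counts per kilobase. The membrane protein genes Laptm4a and Lamp1 followed at 204 and 197, then the carboxypeptidase cathepsin Z (Ctsz) at 136 and progranulin (Grn) at 94.0. The lowest levels per kilobase were 1.86 for galactosylceramidase (Galc) and 11.3 for the calcium channel mucolipin 1 (Mcoln1). Exon length here joins the exons of all annotated transcripts, 14.88 kilobases for Galc and 7.6 for Mcoln1, and a long annotation lowers this level. By mean count alone, Galc stood in place 39 and Mcoln1 in place 34. Tfeb was at 14.9 per kilobase, in place 36 of 39.

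**Figure D1:**
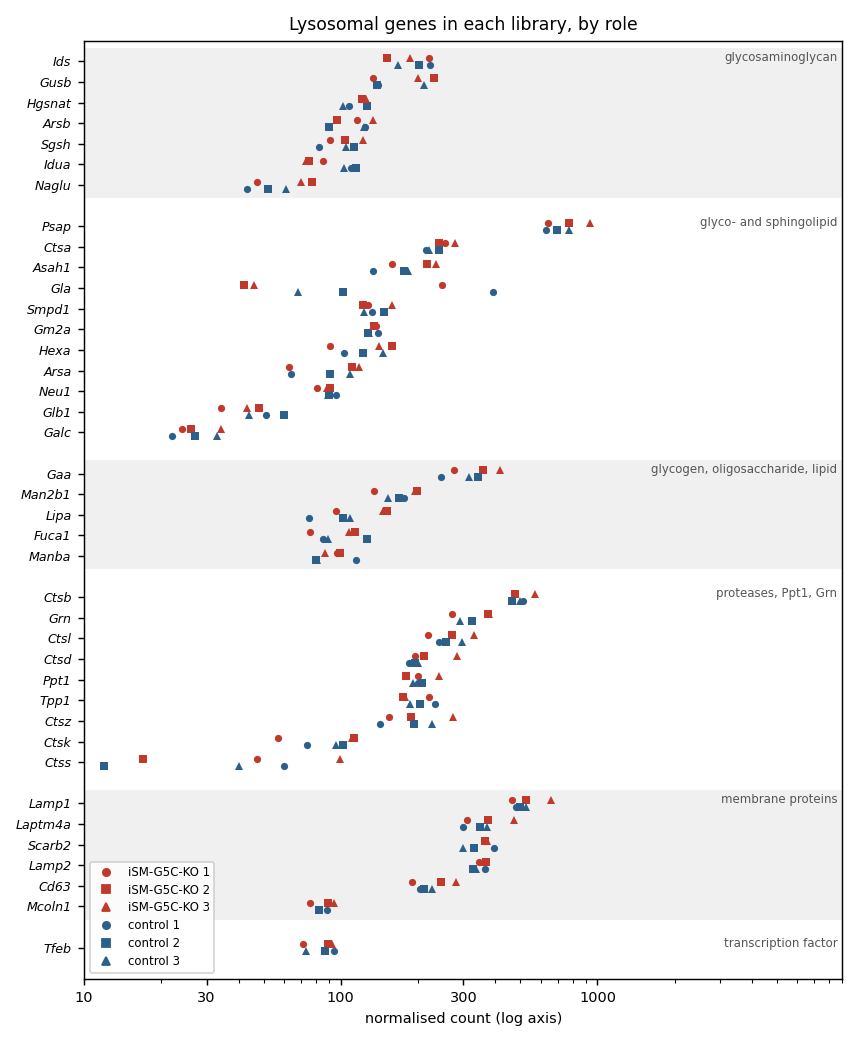
Normalised counts of the 39 lysosomal genes on a log axis, 1 point per library, iSM-G5C-KO (red, upper points of each row) and control (blue, lower points), grouped by role and ordered by mean. Levels run from 12 for Ctss to 934 for Psap, and Gla and Ctss spread most between libraries.

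The E-box bound by TFEB was searched in the promoters because it is the sequence feature that many of these genes are known to share. RefSeq promoters (GRCm38.p6, 250 bases before to 50 bases after each start) were found for 36 members; Asah1, Ctsb and Hgsnat had no entry. The motif GTCACGTG, on either strand, was present in 9 of the 36 members (25%), against 689 of 27025 genes with a promoter entry (2.55%). Its core CACGTG, which lies inside it, was present in 11 of 36 members (30.6%) and in 8.09% of all genes, and the overlapping palindrome TCACGTGA in 4 of 36 members (11.1%) and in 1.12% of all genes. The 9 genes with GTCACGTG or its reverse complement CACGTGAC are Arsa, Ctsa, Ctsd, Gla, Glb1, Lamp1, Mcoln1, Naglu and Sgsh, of which Ctsa, Ctsd and Mcoln1 hold it at 2 places. Each match is shown with up to 12 bases on either side, on the gene's own strand, 5′ to 3′, with the matched GTCACGTG or CACGTGAC in capitals and any other copy of the core in lower case.
Arsa, chr15:89477423-89477454, minus strand: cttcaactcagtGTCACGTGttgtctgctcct
Ctsa, chr2:164833747-164833778, plus strand: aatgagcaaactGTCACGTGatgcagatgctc
Ctsa, chr2:164833766-164833797, plus strand: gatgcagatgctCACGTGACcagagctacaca
Ctsd, chr7:142387906-142387937, minus strand: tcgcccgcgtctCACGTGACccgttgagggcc
Ctsd, chr7:142388053-142388077, minus strand: tccccCACGTGACctgtatccagtc
Gla, chrX:134601182-134601213, minus strand: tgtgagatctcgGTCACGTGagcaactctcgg
Glb1, chr9:114401016-114401047, plus strand: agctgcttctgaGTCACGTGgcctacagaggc
Lamp1, chr8:13159121-13159152, plus strand: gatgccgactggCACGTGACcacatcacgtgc
Mcoln1, chr8:3500434-3500465, plus strand: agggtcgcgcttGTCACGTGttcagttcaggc
Mcoln1, chr8:3500462-3500493, plus strand: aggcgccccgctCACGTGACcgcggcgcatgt
Naglu, chr11:101070007-101070038, plus strand: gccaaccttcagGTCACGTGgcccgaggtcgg
Sgsh, chr11:119355520-119355551, minus strand: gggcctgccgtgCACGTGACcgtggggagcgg

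These matches start between position -245 and position 6 relative to the RefSeq start. They describe sequence only, and no binding was measured here. Among the 9 genes with the motif, the median log2 fold change between iSM-G5C-KO and control was 0.12 and 7 were higher. Among the 27 members whose promoter lacks these letters it was 0.05 and 20 were higher. Tfeb itself had 71, 89 and 92 normalised counts in iSM-G5C-KO libraries 1, 2 and 3, against 94, 87 and 73 in control libraries 1, 2 and 3. These overlapping values gave a log2 fold change of -0.01 (SE 0.17, adjusted p = 0.999, limma).

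Between iSM-G5C-KO and control, 0 of the 39 lysosomal genes passed limma's test, adjusted over all 12735 genes tested, and 0 of those 12735 did (0%). At an unadjusted p under 0.05, limma gave 1 lysosomal gene, Idua, which was lower. Of all genes tested 1.81% were under that p, 0.777% lower and 1.03% higher. With the replicate number as a block, 0 members and 1 gene of all (0.00785%) passed, and 4 members had an unadjusted p under 0.05, of which 2 were lower (Idua and Gla) and 2 higher (Lipa and Asah1), against 10.2% of all genes (5.96% lower and 4.29% higher). The shares of members are thus close to those of all genes in both fits. For 37 of the 39 genes the 95% interval of the log2 fold change lay between -1 and 1, and the median of its half-widths was 0.40. The exceptions were Gla and Ctss. The change of Gprc5c (-0.55) lies inside these outer bounds, but not inside the interval of each gene. For example, the interval of Idua (-0.81 to -0.17) holds it, and that of Lamp2 (-0.19 to 0.31) does not.

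**Figure D2:**
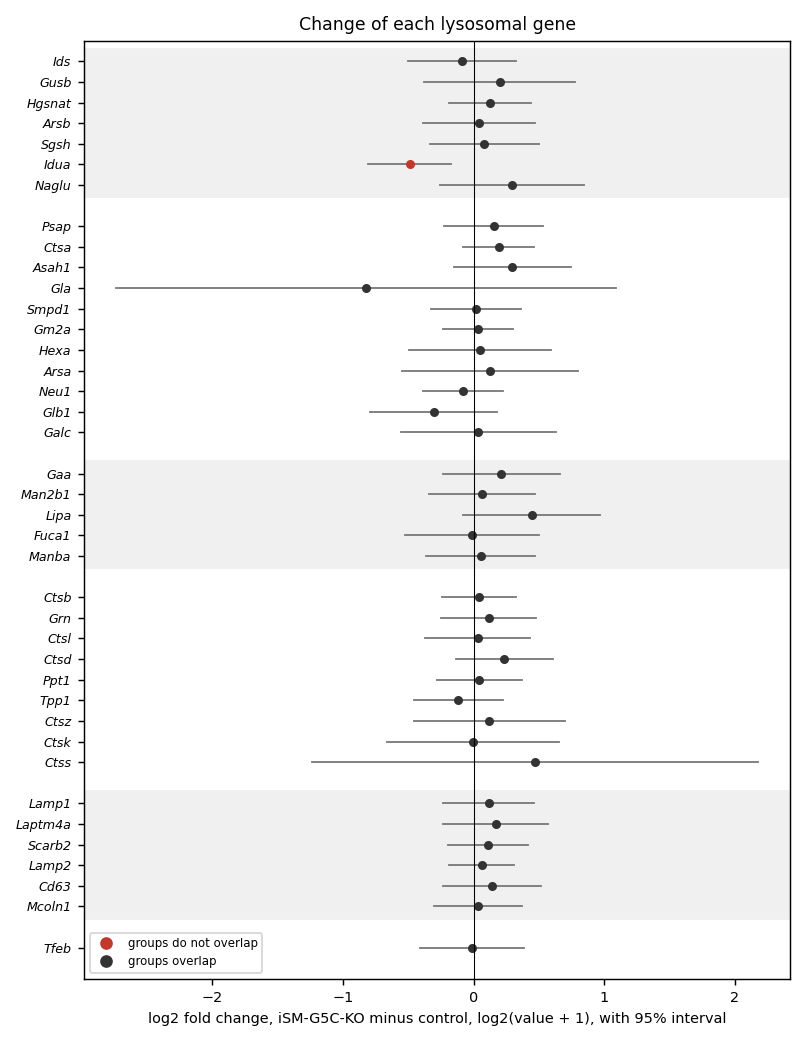
Log2 fold change of each lysosomal gene, iSM-G5C-KO minus control, on log2(value + 1), with the 95% interval from limma (3 libraries per group), grouped by role. Idua, in red, is the member whose groups do not overlap, and the intervals of Gla and Ctss are the widest.

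Among the 7 enzymes of glycosaminoglycan breakdown, Idua had the smallest unadjusted p in limma. It encodes alpha-L-iduronidase, which removes iduronic acid from dermatan and heparan sulfate and is deficient in mucopolysaccharidosis type I. Idua (ENSMUSG00000033540, GRCm38 chr5:108660331-108684557, plus strand) had 85, 75 and 73 normalised counts in iSM-G5C-KO libraries 1, 2 and 3, against 110, 115 and 103 in control libraries 1, 2 and 3. All 3 iSM-G5C-KO values lay below all 3 control values. It was the 1 member of 39 whose groups did not overlap, where 4.91% of all genes tested had none, 2.21% lower and 2.69% higher in iSM-G5C-KO. The means were 77.7 ± 6.43 in iSM-G5C-KO and 109.3 ± 6.03 in control (SD, n = 3 each), which is a log2 fold change of -0.49 (SE 0.14). Limma gave an unadjusted p of 0.00757 and an adjusted p of 0.999, and with the replicate block an adjusted p of 0.246. The exact 2-sided permutation test over libraries gave p = 0.1, the smallest it can give with 3 against 3. Within libraries 1, 2 and 3 the difference was -0.37, -0.61 and -0.49.

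Idua shares a small part of its exons with 2 genes on the opposite strand, 141 bases with the sulfate transporter gene Slc26a1 and 124 bases with the diacylglycerol kinase gene Dgkq. Whether reads were counted by strand is not known from the labels. Slc26a1 was at or below 2 normalised counts in iSM-G5C-KO and at or below 3 in control. Dgkq had 111, 120 and 102 in iSM-G5C-KO libraries 1, 2 and 3, against 128, 133 and 143 in control libraries 1, 2 and 3, so its groups did not overlap either, and its part in the Idua result was not tested. The Idua promoter holds none of the 3 E-box forms searched, and is shown with that of Gla since these genes had the lowest log2 fold changes of the 39. The Gla promoter holds 2 copies of the core CACGTG, and capitals there mark every match to any of the 3 forms.
Idua, chr5:108660081-108660380, plus strand: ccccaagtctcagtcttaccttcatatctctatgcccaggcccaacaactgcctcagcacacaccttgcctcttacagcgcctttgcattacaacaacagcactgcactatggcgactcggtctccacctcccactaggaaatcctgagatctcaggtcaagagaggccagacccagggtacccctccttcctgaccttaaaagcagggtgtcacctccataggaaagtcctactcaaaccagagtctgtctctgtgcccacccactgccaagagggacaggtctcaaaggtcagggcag
Gla, chrX:134600956-134601255, minus strand: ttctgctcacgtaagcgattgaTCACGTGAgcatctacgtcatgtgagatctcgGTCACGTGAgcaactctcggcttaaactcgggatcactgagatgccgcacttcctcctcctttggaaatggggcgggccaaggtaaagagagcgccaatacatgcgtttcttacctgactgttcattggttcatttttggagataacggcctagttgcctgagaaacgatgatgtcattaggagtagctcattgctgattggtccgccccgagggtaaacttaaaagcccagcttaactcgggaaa

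The other 6 enzymes of this pathway had overlapping groups and, like Idua, did not pass. Naglu, an exoglucosaminidase of heparan sulfate, had 47, 77 and 70 normalised counts in iSM-G5C-KO libraries 1, 2 and 3, against 43, 52 and 61 in control libraries 1, 2 and 3. Each iSM-G5C-KO value was above the control of the same number, and the groups overlapped, with a log2 fold change of 0.29 (adjusted p = 0.999, limma). The sulfatases Ids and Arsb, the sulfamidase Sgsh, the acetyltransferase Hgsnat and the glucuronidase Gusb had log2 fold changes of -0.09, 0.04, 0.08, 0.12 and 0.20. With sample quality weights Gusb and Naglu had an unadjusted limma p under 0.05, as 17.5% of all genes tested then did, and Gusb was higher in iSM-G5C-KO by 0.74 between the libraries numbered 2 and lower by 0.07 within the other numbers.

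Of 11 genes of glycolipid and sphingolipid breakdown, Gla varied most. It encodes alpha-galactosidase A, which cleaves globotriaosylceramide and is deficient in Fabry disease, a storage disease of vascular cells. Gla (ENSMUSG00000031266, GRCm38 chrX:134588149-134601125, minus strand) had 248, 42 and 46 normalised counts in iSM-G5C-KO libraries 1, 2 and 3, against 390, 102 and 68 in control libraries 1, 2 and 3. Libraries numbered 1 were the highest in both groups, so the groups overlapped, while within each number the iSM-G5C-KO value was the lower one. The log2 fold change was -0.82 (SE 0.82, adjusted p = 0.999, limma). With the replicate block its standard error was 0.16 (unadjusted p = 0.000628, adjusted p = 0.148, limma). The range over the 6 libraries, 3.18 on the log2 scale, was wider than or equal to that of 98.8% of all genes tested. Within libraries 1, 2 and 3 the difference was -0.65, -1.26 and -0.55 on the log2 scale. Leaving out 1 library also breaks a pair of same-numbered libraries, and the unpaired fold change was then -1.64 without iSM-G5C-KO library 1, -0.38 without iSM-G5C-KO library 2, -0.44 without iSM-G5C-KO library 3, -0.08 without control library 1 and -1.34 without control library 3.

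The genes beside Gla did not show its spread. Hnrnph2, an RNA-binding protein gene that starts 53 bases away on the opposite strand, had 146, 127 and 144 normalised counts in iSM-G5C-KO libraries 1, 2 and 3, against 130, 155 and 134 in control libraries 1, 2 and 3. On the other side, the ribosomal protein gene Rpl36a had 74, 85 and 78 in iSM-G5C-KO and 58, 69 and 72 in control libraries 1, 2 and 3. Over the 6 libraries Hnrnph2 ran from 127 to 155 and Rpl36a from 58 to 85, while Gla ran from 42 to 390. All 3 iSM-G5C-KO values of Rpl36a lay above all 3 control values, while the Hnrnph2 groups overlapped. Both genes were chosen after their values were seen.

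Acid ceramidase (Asah1), which splits ceramide, had 159, 216 and 234 normalised counts in iSM-G5C-KO libraries 1, 2 and 3, against 134, 177 and 182 in control libraries 1, 2 and 3. It was higher in iSM-G5C-KO within each number, by 0.25, 0.29 and 0.36 on the log2 scale, and the groups overlapped. Its log2 fold change was 0.30 (SE 0.19, adjusted p = 0.999, limma), and with the replicate block the SE was 0.096 (adjusted p = 0.330). The protective protein cathepsin A (Ctsa), which stabilises beta-galactosidase and neuraminidase 1, had 254, 241 and 279 in iSM-G5C-KO libraries 1, 2 and 3, against 215, 241 and 220 in control libraries 1, 2 and 3. The lowest iSM-G5C-KO value equalled the highest control value, with a log2 fold change of 0.19 (adjusted p = 0.999, limma). Exons of Ctsa share 495 bases with the opposite-strand gene Pltp, a phospholipid transfer protein, which had 109, 175 and 200 in iSM-G5C-KO and 84, 105 and 155 in control libraries 1, 2 and 3.

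Beta-galactosidase (Glb1), an enzyme of ganglioside and keratan sulfate breakdown, had 34, 48 and 43 normalised counts in iSM-G5C-KO libraries 1, 2 and 3, against 51, 60 and 44 in control libraries 1, 2 and 3. It was lower within each number, with overlapping groups and a log2 fold change of -0.31 (adjusted p = 0.999, limma). Glb1 shares 165 exon bases with Tmppe on the same strand, so reads there are uncertain. Tmppe had 30, 42 and 22 in iSM-G5C-KO libraries 1, 2 and 3, against 48, 44 and 46 in control libraries 1, 2 and 3. All its iSM-G5C-KO values lay below all controls, as in 2.21% of all genes tested, and its part in the Glb1 values was not tested. Psap had 643, 774 and 934 in iSM-G5C-KO libraries 1, 2 and 3, against 628, 698 and 772 in control libraries 1, 2 and 3. Its values were higher in iSM-G5C-KO within each number and overlapped between groups, with a log2 fold change of 0.15 (adjusted p = 0.999, limma). The other 6 genes of this role lay between -0.08 for the sialidase Neu1 and 0.12 for arylsulfatase A (Arsa). Between them stood the sphingomyelinase Smpd1 at 0.02, the GM2 activator Gm2a at 0.03, galactosylceramidase (Galc) at 0.04 and the hexosaminidase alpha subunit (Hexa) at 0.05.

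Lipa, the acid lipase that frees cholesterol and fatty acids from lipoprotein-derived esters, was the member with the second smallest p. It had 96, 151 and 146 normalised counts in iSM-G5C-KO libraries 1, 2 and 3, against 75, 102 and 109 in control libraries 1, 2 and 3. The groups overlapped, since iSM-G5C-KO library 1 lay below control libraries 2 and 3, and each iSM-G5C-KO value was above the control of the same number, by 0.35, 0.56 and 0.42 on the log2 scale. Without the block the log2 fold change was 0.44 (SE 0.23, unadjusted p = 0.0866, adjusted p = 0.999, limma), and with it the SE was 0.12 (adjusted p = 0.255). Acid alpha-glucosidase (Gaa), which digests glycogen, had 277, 359 and 416 in iSM-G5C-KO libraries 1, 2 and 3, against 245, 343 and 316 in control libraries 1, 2 and 3. It too was higher within each number with overlapping groups, at a log2 fold change of 0.21 (adjusted p = 0.999, limma). The glycosidases of glycoprotein breakdown Man2b1, Manba and Fuca1 were at 0.07, 0.05 and -0.01.

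**Figure D3:**
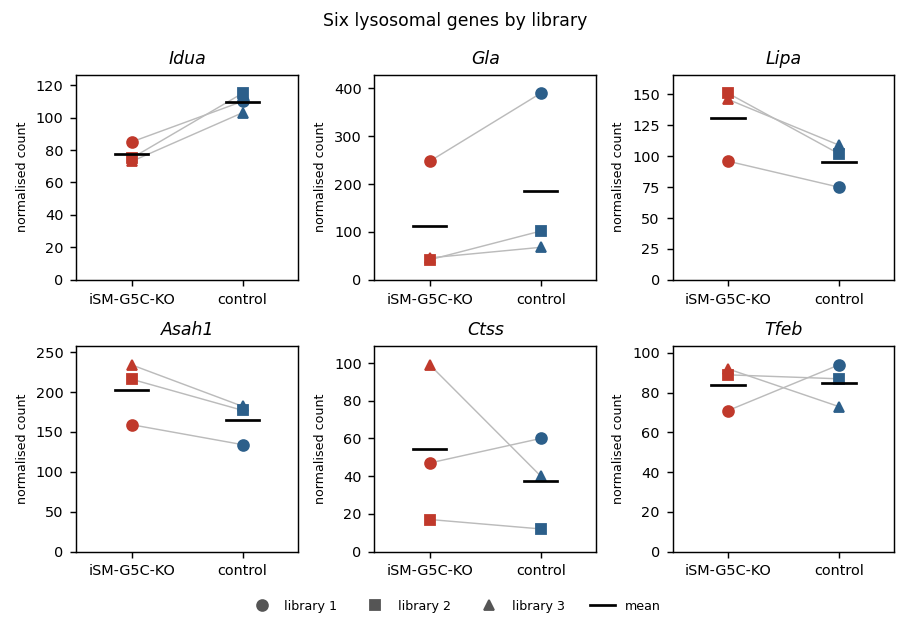
Normalised counts of 6 lysosomal genes, iSM-G5C-KO left and control right in each panel, with 1 symbol per library number, grey lines joining libraries of the same number and black bars for the mean of 3 libraries. The Idua groups do not overlap, Gla, Lipa and Asah1 differ in the same direction in each number, and Ctss and Tfeb do not.

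Among the proteases, cathepsin D (Ctsd), an aspartic protease, had 194, 211 and 283 normalised counts in iSM-G5C-KO libraries 1, 2 and 3, against 184, 194 and 199 in control libraries 1, 2 and 3. Only iSM-G5C-KO libraries 2 and 3 lay above all controls, and the log2 fold change was 0.23 (adjusted p = 0.999, limma). Exons of Ctsd share 808 bases (34.4% of their length) with Gm49369 on the same strand, so reads there are uncertain. The deposited values do not list Gm49369. Cathepsin B (Ctsb), a cysteine protease, had 472, 476 and 573 in iSM-G5C-KO libraries 1, 2 and 3, against 511, 466 and 497 in control libraries 1, 2 and 3. These values overlapped, with a log2 fold change of 0.04 (adjusted p = 0.999, limma). The other proteases Ctsl, Ctsk, Ctsz and Tpp1, the thioesterase Ppt1 and progranulin (Grn) lay between -0.12 for Tpp1 and 0.12 for Ctsz.

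Cathepsin S (Ctss), a protease best known from antigen-presenting cells, had 47, 17 and 99 normalised counts in iSM-G5C-KO libraries 1, 2 and 3, against 60, 12 and 40 in control libraries 1, 2 and 3. It was lowest in the libraries numbered 2 of both groups, and its log2 fold change was 0.47 (SE 0.73, adjusted p = 0.999, limma). The fold change was 1.12 without iSM-G5C-KO library 2 and -0.12 without iSM-G5C-KO library 3, and -0.18 without control library 2. The leukocyte marker list, 13 of whose 17 genes could be tested, summed to 724, 179 and 903 in iSM-G5C-KO and to 913, 238 and 900 in control libraries 1, 2 and 3, and was likewise lowest in the libraries numbered 2. Of these 17 genes 0 were at 0 in all libraries, and of the 13 tested 6 were higher and 7 lower in iSM-G5C-KO, with 0 past the threshold. The part of leukocyte RNA in the Ctss values was not tested. In bulk RNA, fewer cells of a type and less RNA per cell cannot be told apart.

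The 6 membrane proteins all had log2 fold changes above 0, from 0.03 to 0.17, and 0 passed. Lamp1, a main glycoprotein of the lysosomal membrane, had 465, 525 and 661 normalised counts in iSM-G5C-KO libraries 1, 2 and 3, against 480, 500 and 529 in control libraries 1, 2 and 3. Laptm4a, a small membrane-spanning protein, had 310, 376 and 471 in iSM-G5C-KO libraries 1, 2 and 3, against 300, 348 and 370 in control libraries 1, 2 and 3. Both were highest in iSM-G5C-KO library 3, with log2 fold changes of 0.12 for Lamp1 and 0.17 for Laptm4a (adjusted p = 0.999 for each, limma). Scarb2, the receptor that carries glucocerebrosidase to lysosomes, had 365, 364 and 371 in iSM-G5C-KO libraries 1, 2 and 3, against 396, 331 and 300 in control libraries 1, 2 and 3. Mcoln1, the lysosomal calcium channel, had 76, 89 and 94 in iSM-G5C-KO libraries 1, 2 and 3, against 88, 82 and 82 in control libraries 1, 2 and 3. The groups of both overlapped, at 0.11 for Scarb2 and 0.03 for Mcoln1. Lamp2, needed for chaperone-mediated autophagy, and the tetraspanin Cd63 were at 0.06 and 0.14.

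As a group, 30 of the 39 genes had a log2 fold change above 0 and 9 below, with a median of 0.06, where 50.2% of all genes tested were above 0 and 49.8% below, with a median of 0.0011. This lean changed with the library left out, a step that also breaks a pair of same-numbered libraries. Without iSM-G5C-KO library 3, 23 of the 39 were lower and the median was -0.029. Without iSM-G5C-KO library 1 the count lower was 6 and the median 0.18. Summed over the 39 genes, the level was 7009, 7804 and 8863 normalised counts in iSM-G5C-KO libraries 1, 2 and 3, against 7393, 7379 and 7475 in control libraries 1, 2 and 3. The control sums lay close together, while the iSM-G5C-KO sums lay on both sides of them. In iSM-G5C-KO library 3, 20 of the 39 genes had their highest value of all 6 libraries, and in iSM-G5C-KO library 1, 14 had their lowest. Control library 1 held the lowest value of 11 genes and the highest of 8. The shares of all genes tested with such extremes were not computed, so these counts cannot be called particular to lysosomal genes. The fewest estimated reads, 1477485, were also those of iSM-G5C-KO library 3.

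Within numbers the direction changed. Between the libraries numbered 1, 12 of the 39 genes were higher in iSM-G5C-KO (43.9% of all genes tested), with a median difference of -0.08. Between those numbered 2, 26 were higher (48.5% of all), with a median of 0.08, and between those numbered 3, 32 were higher (51.2% of all), with a median of 0.21. The genes higher in iSM-G5C-KO in each number were 7, namely Naglu, Asah1, Psap, Gaa, Lipa, Ctsd and Laptm4a, against 14% of all genes, and the genes lower in each number were 4, namely Idua, Glb1, Gla and Tpp1, against 15.4% of all. The 12 skeletal muscle fibre markers, 0 of them at 0 in all libraries, summed to 2239 to 9241 in iSM-G5C-KO and 1603 to 3862 in control, and 11 of 12 were higher in iSM-G5C-KO. Their sum was highest in iSM-G5C-KO library 3, where the giant sarcomere gene Ttn alone gave 5386, against 868 in control library 3. Between these libraries numbered 3, 6 of the 12 were higher in iSM-G5C-KO, with a median difference of -0.035, and Acta1, the skeletal muscle actin gene, had 399 in iSM-G5C-KO and 488 in control. Between the libraries numbered 1, 10 of the 12 were higher in iSM-G5C-KO (median difference 0.38), and between those numbered 2, 11 were (0.46). Pericyte markers summed to 10596 to 17431 in iSM-G5C-KO and 9955 to 15136 in control, with 8 of 8 higher and 0 at 0 in all libraries. Endothelial markers summed to 619 to 1484 in iSM-G5C-KO and 590 to 1048 in control, with 12 of 12 higher and 0 at 0 in all libraries. In the other direction, 10 of 10 smooth muscle markers were lower in iSM-G5C-KO (median -0.11 on the log2 scale), as were 11 of 12 fibroblast markers, which summed to 6840 to 11139 in iSM-G5C-KO and 7957 to 12183 in control. Within numbers this was not uniform. Of the smooth muscle markers, 7 were higher in iSM-G5C-KO between the libraries numbered 1, 0 between those numbered 2 and 3 between those numbered 3. For the fibroblast markers these counts were 1, 6 and 3. Of the 6 Schwann cell markers 4 were higher. Of all these marker genes 0 passed limma's test, and their part in the lysosomal sums was not tested.

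**Figure D4:**
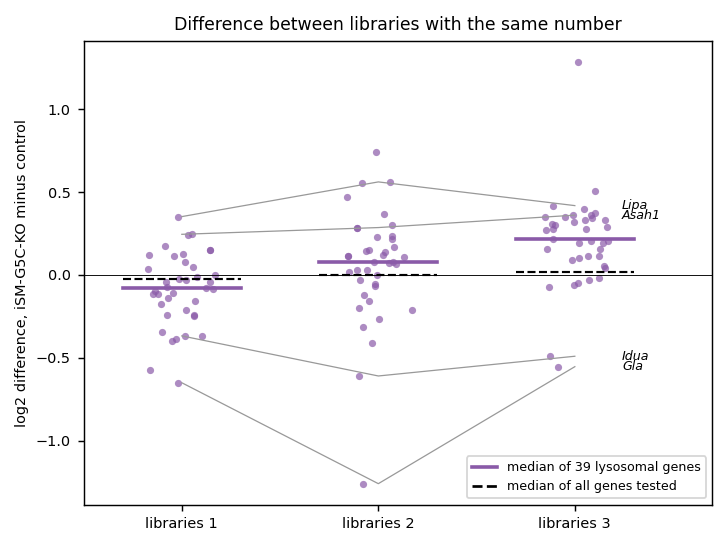
Log2 difference, iSM-G5C-KO minus control, between the libraries of each number, 1 point per lysosomal gene, with the median of the 39 genes (purple bar) and of all genes tested (dashed). The purple median moves from -0.08 in libraries 1 to 0.21 in libraries 3, and grey lines follow Lipa, Asah1, Idua and Gla.

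In each of 6 related lists of lysosomal and autophagy genes, 0 members passed limma's test, with or without the block. Of 24 tested hydrolases outside the 39, 14 had a log2 fold change above 0 and 10 below, and the median was 0.04. Ctsh, a cysteine protease, had 45, 65 and 56 normalised counts in iSM-G5C-KO libraries 1, 2 and 3, against 65, 77 and 101 in control libraries 1, 2 and 3, a log2 fold change of -0.53 (unadjusted p = 0.0430, adjusted p = 0.999, limma). Its groups met at 65, and it was the 1 gene of the list at an unadjusted p under 0.05. Of 28 tested lysosomal membrane proteins and transporters, 17 were higher, with a median of 0.06, and the smallest p belonged to the nucleoside transporter Slc29a3 (0.33) and the calcium and sodium channel Tpcn2 (-0.28).

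Of 18 genes of mannose 6-phosphate tagging and sorting, 8 were higher and 10 lower, with a median of -0.02. The large mannose 6-phosphate receptor Igf2r had 1271, 1530 and 1738 normalised counts in iSM-G5C-KO libraries 1, 2 and 3, against 1242, 1229 and 1480 in control libraries 1, 2 and 3. It was higher within each number, with a log2 fold change of 0.19 (adjusted p = 0.999, limma), as the adaptor subunit gene Ap1s2 was at 0.19. The 17 subunits of the vacuolar ATPase, the proton pump that acidifies the lysosome, had a median of 0.03, with 11 higher and 6 lower. Of these subunits, 6 were higher between the libraries numbered 1, 1 between those numbered 2 and 15 between those numbered 3. Their smallest p belonged to Atp6v0a1 (-0.20) and Atp6v1g1 (0.22). Of 21 tested genes of the TFEB family and of mTORC1 control at the lysosome, Tfeb included, 14 were lower, with a median of -0.05. Here 4 were higher between the libraries numbered 1, 8 between those numbered 2 and 13 between those numbered 3. The Rag GTPase gene Rragb (-0.85) and folliculin (Flcn, -0.17) had the smallest p there.

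Of 24 autophagy genes, 18 had a log2 fold change below 0, with a median of -0.07. The protease Atg4b had 147, 140 and 123 normalised counts in iSM-G5C-KO libraries 1, 2 and 3, against 163, 155 and 167 in control libraries 1, 2 and 3. Atg14, a subunit of the autophagy lipid kinase complex, had 78, 77 and 67 in iSM-G5C-KO libraries 1, 2 and 3, against 82, 93 and 94 in control libraries 1, 2 and 3. In both genes, 2 of the 24, all iSM-G5C-KO values lay below all controls, as in 2.21% of all genes tested. Their log2 fold changes were -0.24 for Atg4b and -0.27 for Atg14 (adjusted p = 0.999 for each, limma). Groups also did not overlap for Ctns and Clcn7 (lower) and Npc1 (higher) among the 28 membrane proteins and transporters. The same held for Gga3 (lower) among the 18 genes of mannose 6-phosphate tagging and sorting. Of all genes tested, 2.69% were higher without overlap. The differences between the lists themselves were not tested.

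**Figure D5:**
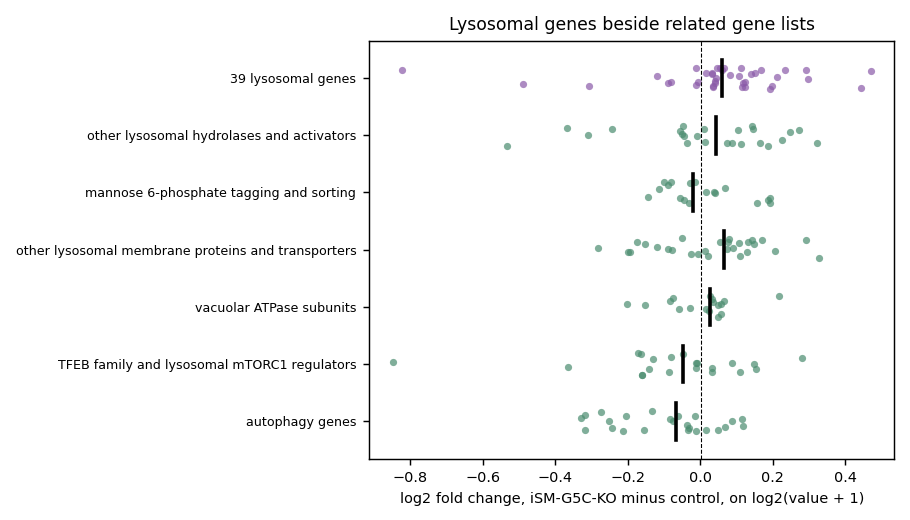
Log2 fold change, iSM-G5C-KO minus control, of each tested gene in the 39 lysosomal genes (purple) and in 6 related lists (green), with black bars for the medians and a dashed line at the median of all genes tested. All list medians lie between -0.07 and 0.06.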

How the data were processed

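RNA was sequenced from EGFP-positive SMC of 3 iSM-G5C-KO and 3 control libraries. Per the labels' protocols, cells binding antibodies to CD31, CD45 and Ter119 were depleted on beads before sorting, and 5 ng total RNA entered a stranded low-input library kit. Tools named, without a role, per the submitters' processing notes are DESeq2 1.18.1, featureCounts 1.6.5, STAR 2.6.1d and Trimmomatic 0.39, with builds mm10 and GRCm38.p5. The deposited values are a score, read counts divided by 1 factor per library and rounded by the authors, as the spacing of low values shows. The worth of 1 read was estimated from that spacing, which gives the read numbers stated. Because the values are rounded after scaling they are not counts, and no count model was used.

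Limma 3.58.1 in R 4.3.3 was run on log2(value + 1) with an intensity trend, 2-sided, on 12735 genes with a mean of at least 10, with Benjamini-Hochberg adjustment over all of them and a threshold of 0.05. Fold changes are iSM-G5C-KO minus control on this scale, which understates those of low genes. The labels do not say whether libraries come from separate animals. The p-values therefore reflect only how these 6 samples spread, which may be technical. The main fit was not paired. Deviations of same-numbered libraries from their group means correlated over genes at 0.59, 0.31 and 0.44. Libraries of a number were therefore taken as pairs, but only in the replicate block and in differences within a number. That pairing comes from the data alone, as the meaning of a number is not in the labels. Exon lengths and overlaps are from GENCODE M21 (GRCm38), in which 32 of the 39 genes have the same span as in the deposited table. Members and lists were chosen with earlier results of these data known. Values per library are given for members without overlap, the 10 with the smallest p, the 5 with the highest mean, Tfeb and Mcoln1, and Ctss was added after its values were seen. In related lists, genes at an unadjusted p under 0.05 or the 2 with the smallest p are named. Alternatives were 2 other pseudocounts, 2 other filters, 2 scalings, no trend, sample weights, the replicate block and leaving out each library.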

Additional observations from a re-analysis of the deposited data

How the results depend on the processing

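In every alternative run, 0 lysosomal genes passed the threshold, Idua stayed lower (-0.58 to -0.45) with an unadjusted p under 0.05, and Gprc5c stayed lower without passing. The count over all genes was 2 with sample quality weights and 1 with the replicate block. The count of lysosomal genes at an unadjusted p under 0.05 was 5 with sample quality weights (17.5% of all genes tested), 4 with the block (10.2%), and 1 to 5 on leaving out 1 library, with the 5 coming without iSM-G5C-KO library 1 (10.3%). These shares of all genes stand beside 5 or 4 of 39 members. The block changed no other call. Leaving out 1 library, 6 to 23 members were lower and the median was -0.029 to 0.18; the highest median came without iSM-G5C-KO library 1. Small fold changes turned sign. With upper-quartile scaling Fuca1, Ctsk and Tfeb came to 0.0001, 0.0070 and 0.0002. With sample quality weights Sgsh, Hgsnat, Smpd1 and Ppt1 came to -0.031, -0.0115, -0.12 and -0.0498, and Ctsk and Tfeb to 0.071 and 0.024. On leaving out 1 library, the ranges that crossed 0 were -0.085 to 0.41 for Arsa, -0.11 to 0.16 for Arsb, -0.051 to 0.089 for Ctsb, -0.17 to 0.32 for Ctsk, -0.12 to 0.18 for Ctsl, -0.18 to 1.12 for Ctss, -0.11 to 0.30 for Ctsz, -0.12 to 0.17 for Fuca1, -0.11 to 0.18 for Galc, -0.11 to 0.28 for Hexa, -0.22 to 0.051 for Ids, -0.025 to 0.23 for Lamp1, -0.03 to 0.24 for Man2b1, -0.035 to 0.22 for Manba, -0.029 to 0.12 for Mcoln1, -0.071 to 0.14 for Ppt1, -0.054 to 0.18 for Sgsh, -0.096 to 0.089 for Smpd1 and -0.11 to 0.10 for Tfeb. For all of these the cause was not tested. Depth limits the low genes most, such as Galc and Ctss.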
